A study of Mus musculus with 10 samples.

Results

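The 37 genes of the mouse mitochondrial genome were examined in RNA of CD34- HSCs, the hematopoietic stem cells of adult bone marrow. They were taken as the genes whose symbol starts with mt- among 33393 genes in the deposited values. They comprise 13 mRNA genes, 2 rRNA genes and 22 tRNA genes. The cells were sorted as lineage-negative, Sca-1-positive, c-Kit-positive, CD34-negative and Flt3-negative from bone marrow of C57BL/6 mice aged 8 weeks. In Reg1Δ/Δ mice (Vav1-iCre; Reg1flox/flox) the recombinase Vav1-iCre deletes Zc3h12a, which codes for the RNA-degrading enzyme Regnase-1, and controls were Reg1flox/flox mice that carry the same floxed alleles without iCre. Vav1-iCre is active throughout the blood system, so the deletion is not restricted to stem cells. A first experiment held 3 libraries per genotype and a second held 2 per genotype, 10 libraries in all. The experiments were told apart by the form of the sample titles, since the labels name no batch or date. Each library is a separate sample by its label, and whether each came from a separate mouse or from pooled mice is not stated per sample.

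Mitochondrial DNA is a small circle that is read from both strands as long precursor RNAs. The tRNAs lie between most of the mRNA and rRNA genes, and their excision releases the neighbouring RNAs. All mRNAs of this genome code for membrane subunits of the respiratory chain or ATP synthase, and the rRNAs and tRNAs serve the mitochondrial ribosome that translates them. All other subunits, and every protein that copies, cuts and degrades these RNAs, are encoded in the nucleus. Hematopoietic stem cells are known to rely little on respiration while they are quiescent.

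The values are TPM (transcript abundance per length), which adds up to 1000000 in every library. TPM is relative and keeps no read numbers, so the depth is unknown and no counting error can be given. The mRNA genes measure 204 to 1824 bases and the tRNA genes 59 to 75 bases. In genes as short as tRNAs a division by length gives high values from little RNA, and the smallest tRNA value above 0 in a library ranged from 5.77 to 36.0 TPM. The library kits named by the labels do not mark the strand, so RNA from the strands of overlapping genes cannot be told apart.

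Neighbouring genes share bases at 9 places, and 5 windows at 4 of these joints are shown because reads there can be given to either gene. All are on chrM of GRCm38, plus strand. The 43 bases shared by mt-Atp8 and mt-Atp6 (chrM:7927-7969) begin with the first codon of mt-Atp6, in capitals in the first line (chrM:7917-7946), and close with the end of mt-Atp8, in capitals in the second (chrM:7952-7981). In the other lines the capitals are the bases held by both genes, 7 for mt-Nd4l and mt-Nd4 (chrM:10156-10185), 3 for mt-Co1 and mt-Ts1 (chrM:6858-6887) and 14 for mt-Nd5 and mt-Nd6 (chrM:13544-13573). The last pairs lie on opposite strands.
mt-Atp8/mt-Atp6, start of mt-Atp6: gagaattaaaATGaacgaaaatctatttgc
mt-Atp8/mt-Atp6, end of mt-Atp8: TCATTACCCCAACAATAAtaggattcccaa
mt-Nd4l/mt-Nd4: aacctactacaATGCTAAaaattattcttc
mt-Co1/mt-Ts1: gtaaaagtaaaaTAAgaaaggaaggaatcg
mt-Nd5/mt-Nd6: atactcaaTTAATCTCGAGTAAtctcgata

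Of the 13 mRNA genes, 7 have a nearly identical copy in the nuclear genome, which matters for every value given for them. The copies are annotated as pseudogenes and lie in one run of 4663 bases on chromosome 1 (chr1:24611535-24616197, GRCm38, minus strand). Those of mt-Nd4 (Gm28439, 876 bases), mt-Nd4l (Gm10222, 294 bases), mt-Co3 (Gm28437, 783 bases), mt-Atp6 (Gm10925, 678 bases) and mt-Co2 (Gm28661, 681 bases) had no mismatch over their aligned length. The copies of mt-Nd3 (Gm28438) and mt-Co1 (Gm29216) each had 1, T3C and A1066T, where positions are counted from the first base of the mitochondrial gene, whose base comes first. The stretches around both are shown because they hold the only aligned base that separates gene from copy, in capitals.
mt-Nd3, chrM:9459-9476: atTaacctgtacactgtt
Gm28438, chr1:24613102-24613119: atCaacctgtacactgtt
mt-Co1, chrM:6390-6408: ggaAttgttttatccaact
Gm29216, chr1:24616170-24616188: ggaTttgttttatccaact

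Mitochondrially encoded RNA held 7.55%, 12.3% and 8.70% of all TPM in the first-experiment controls. The libraries labelled Reg1Δ/Δ of that experiment had 7.78%, 9.87% and 5.08%. Shares in the second experiment were 2.06% and 4.49% in the controls and 2.72% and 0.913% in the libraries labelled Reg1Δ/Δ. The groups overlapped within each experiment, and every library of the second was below every library of the first. These shares leave out the nuclear copies. The copies held a further 2.48% in replicate 2 of the second-experiment controls, which was at 4.49% without them. In replicate 3 of the first-experiment libraries labelled Reg1Δ/Δ, at 5.08%, they held a further 0.621%. With the copies counted, the experiments thus overlapped. In bulk samples, fewer cells of a type and less RNA per cell cannot be told apart.

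Zc3h12a had a log2 fold change of 0.83 (FDR = 0.0314 by limma) in the libraries labelled Reg1Δ/Δ against the controls and thus ran against the label, so directions are given by label. The value is summed over the whole gene and is not limited to the deleted part, so it does not check the deletion itself. Summed TPM of 8 HSC markers was 769 to 876 and 336 to 499 in the controls of the first and second experiment, and 186 to 565 and 181 to 205 in the libraries labelled Reg1Δ/Δ. Within each experiment 7 of the 8 were below every control in the libraries labelled Reg1Δ/Δ, with Procr at 19.8 to 37.3 TPM in the controls and 0.108 to 1.36 TPM in the others. Ly6a, which codes for Sca-1 of the sort gate, was at 68.1 to 108 TPM in the controls and at 449, 50.9, 369, 124 and 115 TPM in the libraries labelled Reg1Δ/Δ. Kit, also of the gate, was at 106 to 367 TPM and at 56.1 to 116 TPM. Cd34 and Flt3, whose proteins the gate excludes, summed to 158 to 270 and 62.9 to 96.7 TPM in the controls, with Cd34 at 51.9 to 236 TPM, against 14.3 to 22.01 and 10.7 to 15.1 TPM. Summed TPM of 6 granulocyte and monocyte markers was 2758 to 5017 and 10503 to 12115 in the controls, against 269 to 871 and 660 to 691, although Mpo and Elane overlapped between the groups of the second experiment. Summed TPM of 6 B-lineage markers was 118 to 804 and 817 to 962 in the controls, against 4.97 to 17.02 and 2.34 to 6.17, with 3 of the 6 at 0 in 1 library. Summed TPM of 6 erythroid markers was 1101 to 2755 and 2857 to 3993 in the controls, against 589 to 694 and 679 to 920. That sum is carried by the globin genes, while the erythroid genes Klf1 (27.8 to 132 TPM in the controls, 242 to 322 TPM in the others) and Epor (11.5 to 60.8 and 68.7 to 96.9 TPM) were above every control. Summed TPM of 4 T-cell markers was at most 8.03 in any library. Replicate 2 of the libraries labelled Reg1Δ/Δ in the second experiment stood apart, since the short RNA genes Gm24245 and Mir6236 held 10.5% of its TPM and 0.107% to 1.69% elsewhere. The part of these differences in the results below was not tested.

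The 13 mRNAs together held similar shares in both genotypes of the first experiment. Their summed TPM was 30248, 45658 and 34783 in the controls and 38075, 48638 and 28738 in the libraries labelled Reg1Δ/Δ. In the second experiment the sums were 17092 and 39330 in the controls and 23699 and 7710 in the libraries labelled Reg1Δ/Δ. The log2 ratio of the genotypes was 0.05 ± 0.34 (SD, n = 3) for the first experiment and −0.94 ± 1.01 (SD, n = 2) for the second, smaller than the spread between replicates in both. For all ratios of sums, this SD is that of the log2 sums within a genotype, pooled over both genotypes, with n libraries in each. It is not an error of the ratio. After median-of-ratios scaling the ratio was 0.51 with an SD of 0.39 in the first experiment and −0.59 with an SD of 0.93 in the second. On the TPM scale, the ratio of the second experiment was −0.13 without replicate 2 of the libraries labelled Reg1Δ/Δ and −1.75 without replicate 1.

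The tRNA and rRNA sums had log2 ratios below 0 in both experiments. The summed tRNA TPM in the first experiment was 44857, 77293 and 51812 in the controls and 39451, 49664 and 21823 in the libraries labelled Reg1Δ/Δ. Second-experiment sums were 2977 and 4702 in the controls and 3211 and 1242 in the libraries labelled Reg1Δ/Δ. The log2 ratio was −0.69 ± 0.52 (SD, n = 3) and −0.91 ± 0.76 (SD, n = 2), and the groups overlapped in both experiments. Leaving out replicate 2 of the libraries labelled Reg1Δ/Δ moved the second value to −0.22, and leaving out replicate 1 moved it to −1.59. The first value was −0.35 to −0.94 with any 1 library left out. The rRNAs summed to 365, 545 and 405 TPM in the controls and to 315, 377 and 242 TPM in the libraries labelled Reg1Δ/Δ of the first experiment. In the second they summed to 514 and 831 TPM and to 308 and 178 TPM. The log2 ratio of the rRNA sums was −0.50 ± 0.31 (SD, n = 3) and −1.48 ± 0.53 (SD, n = 2), and only in the second experiment were the groups apart. With any 1 library left out, the first rRNA value was −0.33 to −0.65 and the second −1.09 to −1.88.

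**Figure D1:**
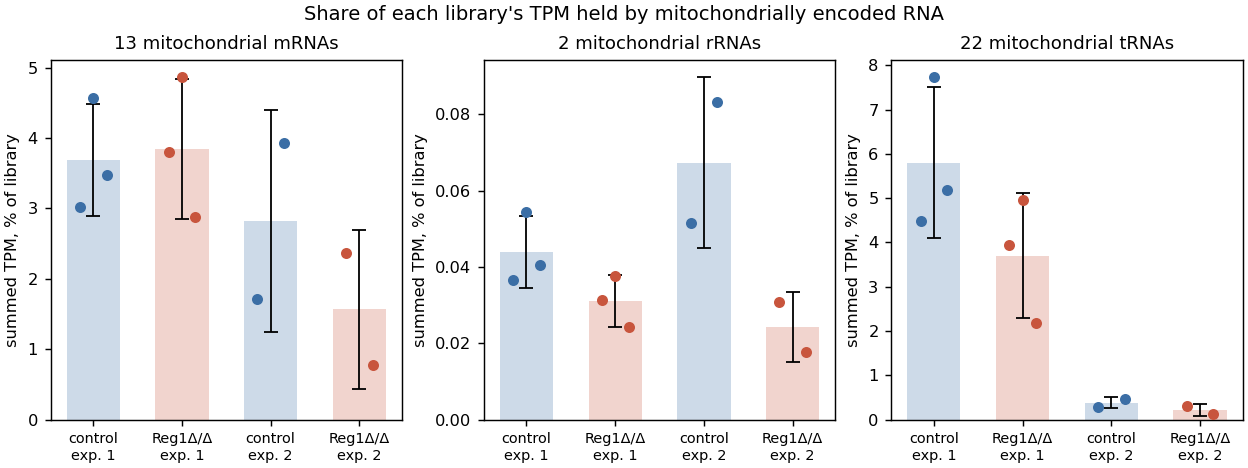
Percent of the TPM of each library held by mitochondrial mRNAs, rRNAs and tRNAs (y axes, from 0), by genotype and experiment (x axes). Points are libraries, bars are means and error lines are SD (n = 3 in experiment 1, n = 2 in experiment 2). The tRNA share was 2.18% to 7.73% in experiment 1 and 0.124% to 0.470% in experiment 2, whereas the mRNA shares of the experiments overlapped.

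To ask whether single mitochondrial genes differed between the genotypes, log2(TPM + 1) of 12874 genes was tested with limma with the experiment as a covariate. Fold changes are on this scale, which understates those of low genes. Of the 37 genes, 35 passed the filter of at least 1 TPM in at least 5 libraries, and mt-Tv and mt-Td did not. In the libraries labelled Reg1Δ/Δ, 0 of the 35 rose and 3 fell at FDR under 0.05, and 5 of the 35 had an unadjusted p under 0.05. Of all tested genes 52.9% were called, 15.0% as higher and 37.9% as lower, compared with 3 of 35 members. The balance of calls depends on scaling: 28.4% of all calls were higher here, 57.2% after median-of-ratios scaling and 59.4% after quantile normalization. The median estimate over all tested genes moved from −0.25 to 0.10 and 0.14, and the medians of the mRNAs, rRNAs and tRNAs from −0.42, −0.88 and −0.46 to −0.0039, −0.46 and −0.17 and to −0.50, −0.93 and −0.38. No member was called lower after median-of-ratios scaling, and 1, mt-Nd3, was called higher.

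The genes that were lower were both rRNAs and mt-Ts1, a serine tRNA. mt-Rnr1 (ENSMUSG00000064337, chrM:70-1024, plus strand) codes for the 12S rRNA of the small ribosomal subunit. It was at 99.0, 102.8 and 106 TPM in the first-experiment controls and at 87.7, 82.9 and 76.2 TPM in the libraries labelled Reg1Δ/Δ. The second experiment gave 331 and 486 TPM against 207 and 123 TPM. It was the only member of which every library labelled Reg1Δ/Δ was below every control in both experiments. The log2 fold change was −0.72 (SE 0.22, FDR = 0.0226 by limma), with −0.32 (FDR = 0.0663) from the first experiment by itself and −1.32 (FDR = 0.131) from the second.

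mt-Rnr2 (ENSMUSG00000064339, chrM:1094-2675, plus strand) codes for the 16S rRNA of the large subunit. It was at 266, 442 and 299 TPM in the controls and at 227, 294 and 166 TPM in the libraries labelled Reg1Δ/Δ of the first experiment. Its second-experiment values were 184 and 345 TPM and 100.1 and 54.6 TPM. The groups overlapped in the first experiment, where replicate 2 of the libraries labelled Reg1Δ/Δ was above replicate 1 of the controls, and not in the second. The log2 fold change was −1.03 (SE 0.32, FDR = 0.0212 by limma). Fitted within each experiment it was −0.55 (FDR = 0.136) and −1.75 (FDR = 0.132).

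mt-Ts1 (ENSMUSG00000064352, chrM:6870-6938, minus strand) was at 39047, 67444 and 45922 TPM in the controls and at 33108, 40502 and 18601 TPM in the libraries labelled Reg1Δ/Δ of the first experiment. Second-experiment values were 665 and 889 TPM and 404 and 231 TPM. The groups overlapped in the first experiment only, by 1 library on each side. The log2 fold change was −0.99 (SE 0.27, FDR = 0.0124 by limma), and within each experiment −0.76 (FDR = 0.102) and −1.33 (FDR = 0.125). With any 1 library left out, all 3 genes stayed lower at FDR under 0.05. With no filter on low values mt-Rnr1 (FDR = 0.0641) and mt-Rnr2 (FDR = 0.0679) missed the threshold, as did mt-Rnr1 with the replicate numbers as a block (FDR = 0.0691), and without the experiment as a covariate all 3 did (FDR = 0.117 to 0.802 by limma). After median-of-ratios scaling their estimates were −0.30 (FDR = 0.282) for mt-Rnr1, −0.62 (FDR = 0.135) for mt-Rnr2 and −0.57 (FDR = 0.113) for mt-Ts1. After quantile normalization mt-Ts1 missed the threshold as well (−0.60, FDR = 0.0521). Summed HSC, granulocyte and B-lineage markers moved with the same contrast (above), and their part in these differences was not tested.

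In the first experiment alone, mt-Th (a histidine tRNA) and mt-Tt (a threonine tRNA) were the only members that were lower at FDR under 0.05 by limma. mt-Th was at 58.8, 48.1 and 59.3 TPM in the controls and at 8.84, 38.8 and 8.98 TPM in the libraries labelled Reg1Δ/Δ (log2 fold change −1.83, FDR = 0.0284). mt-Tt was at 141, 171 and 136 TPM and at 88.4, 112 and 67.4 TPM (log2 fold change −0.76, FDR = 0.0232). The groups did not overlap for either. In the second experiment mt-Th was listed at 0 in every library, and mt-Tt was at 36.0 and 0 TPM in the controls and 38.5 and 0 TPM in the libraries labelled Reg1Δ/Δ.

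Of the 35 tested genes, 1 lay above and 3 lay below every control in all libraries labelled Reg1Δ/Δ of the first experiment, against 17.9% and 44.4% of all tested genes. In the second experiment 2 lay above and 3 below, against 23.5% and 38.9%. The 35 include tRNAs listed at 0 in every library of that experiment, which could lie on neither side. The gene above in the first experiment was mt-Nd1, a membrane subunit of complex I. It was at 778, 1234 and 1175 TPM in the controls and at 1375, 1752 and 1304 TPM in the libraries labelled Reg1Δ/Δ, and in the second experiment at 1460 and 2798 TPM and at 2082 and 591 TPM, where the groups overlapped. Its log2 fold change over both was −0.05 (SE 0.39, FDR = 0.923 by limma), and it was 0.35 (FDR = 0.248) without replicate 2 of the libraries labelled Reg1Δ/Δ in the second experiment.

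**Figure D2:**
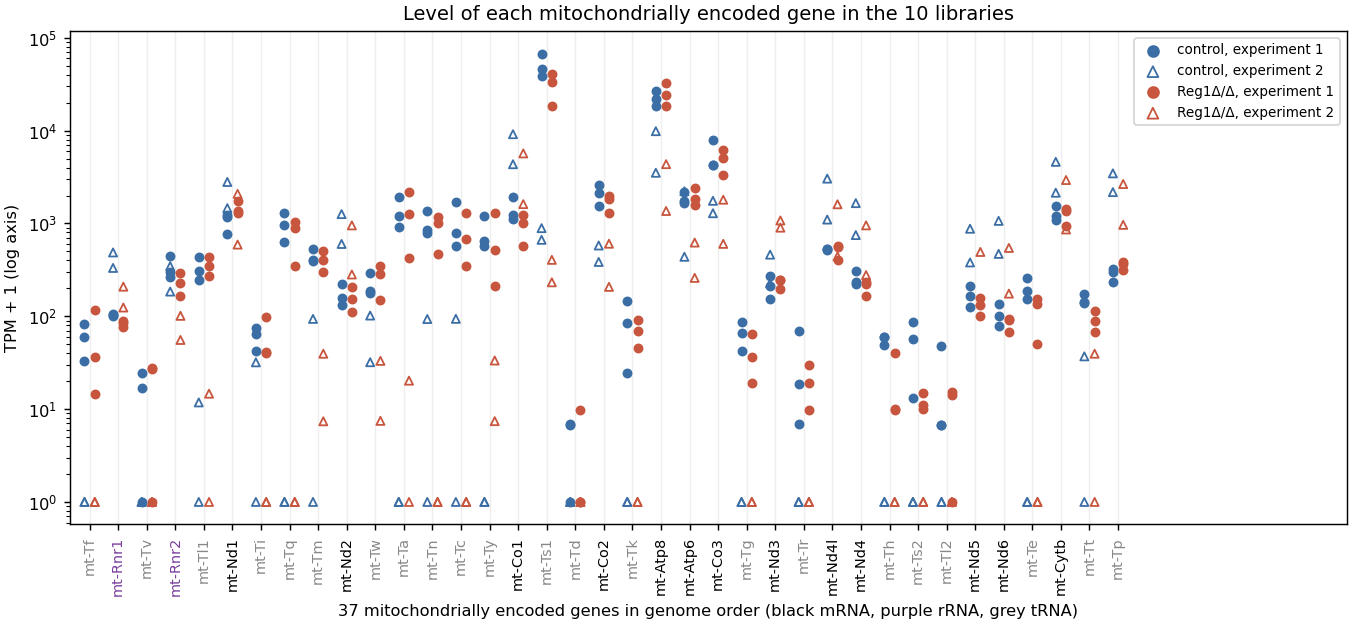
TPM + 1 of the 37 mitochondrially encoded genes (y axis, log scale) in genome order (x axis) in the 10 libraries. Filled circles are the first experiment, open triangles the second, blue points controls and red points libraries labelled Reg1Δ/Δ. The highest value is that of mt-Ts1 with 67444 TPM in a control of the first experiment, and the triangles at the bottom are the tRNAs listed at 0 in the second.

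By this fit no mRNA was called in either direction, and 12 of the 13 estimates were below 0, as was the median of all genes. After median-of-ratios scaling 7 were below and 6 above 0, and after quantile normalization 11 and 2. mt-Co1, the catalytic core subunit of cytochrome c oxidase, was at 1115, 1902 and 1239 TPM in the controls and at 1010, 1229 and 575 TPM in the libraries labelled Reg1Δ/Δ of the first experiment. It reached 4344 and 9151 TPM in the second experiment, against 5678 and 1614 TPM. The groups overlapped in both, and the log2 fold change was −0.80 (SE 0.38, FDR = 0.104 by limma). It passed the threshold without replicate 1 of the libraries labelled Reg1Δ/Δ in the second experiment (−1.04, FDR = 0.0441), and when the TPM of its nuclear copy was added to it (−0.95, FDR = 0.0474). That copy measures 492 bases against 1545 of the gene, so a sum of their TPM, which is per length, is not on the scale of the gene. Without replicate 2 of the libraries labelled Reg1Δ/Δ in the second experiment, the log2 fold change of mt-Co1 by itself was −0.48.

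As a share of the mitochondrial mRNA of its library, mt-Co1 was 1 of 7 mRNAs that did not overlap between the groups of the first experiment. Lower in the libraries labelled Reg1Δ/Δ were mt-Nd2, mt-Co1, mt-Nd4, mt-Nd5 and mt-Nd6, and higher were mt-Nd1 (2.57% to 3.38% in the controls, 3.602% to 4.54% in the others) and mt-Atp8 (58.2% to 62.5% and 63.3% to 66.4%). Shares of one sum are not independent of each other and have no counterpart over all genes, and on the TPM scale 1 of the 13 mRNAs did not overlap in each experiment. mt-Co1 held 3.69%, 4.17% and 3.56% of the mRNA TPM in the controls and 2.65%, 2.53% and 2.0% in the libraries labelled Reg1Δ/Δ. With the copies added to every mRNA, the shares were 11.97%, 12.8% and 11.1% against 7.57%, 6.51% and 5.77%. In the second experiment mt-Co1 held 25.4% and 23.3% in the controls and 24.0% and 20.9% in the libraries labelled Reg1Δ/Δ, where the groups overlapped. There 8 mRNAs did not overlap, and 5 with the copies added, with mt-Nd2 and mt-Nd3 higher and mt-Atp8, mt-Nd4 and mt-Nd6 lower in both counts. mt-Nd4 and mt-Nd6 were thus lower in both experiments with and without the copies, and mt-Nd5 was so only without them. mt-Nd2 and mt-Atp8 lay on opposite sides in the experiments. With 3 libraries against 3, no exact test within the first experiment can reach p under 0.05. These shares were not tested, within an experiment or over both.

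mt-Nd3, a small membrane subunit of complex I, was the only mRNA with an estimate above 0 on the TPM scale (log2 fold change 0.73, SE 0.31, FDR = 0.0763 by limma). It was at 154, 267 and 211 TPM in the controls and at 246, 243 and 197 TPM in the libraries labelled Reg1Δ/Δ of the first experiment, which overlapped. In the second experiment it was at 225 and 460 TPM and at 1075 and 900 TPM, which did not. It passed the threshold without replicate 2 of the controls in the first experiment (0.91, FDR = 0.0366), among genes with at least 1 TPM in every library (0.73, FDR = 0.0493) and after median-of-ratios scaling (1.15, FDR = 0.00908). Without replicate 1 of the controls in the second experiment the log2 fold change was 0.44.

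The difference in the TPM of mt-Nd3 depended on how RNA was divided between the gene and its copy Gm28438, which differ by 1 base (T3C, in the stretch shown above). In the second experiment the copy held 979 and 1582 TPM in the controls and 702 and 96.6 TPM in the libraries labelled Reg1Δ/Δ. It thus took 81.3% and 77.5% of the sum in the controls and 39.5% and 9.69% in the others. The sum was 1204 and 2042 TPM in the controls and 1777 and 996 TPM in the libraries labelled Reg1Δ/Δ, and these overlapped. As a share of mitochondrial mRNA with the copies added, the sum held 4.12% and 3.18% in the controls and 4.69% and 8.21% in the libraries labelled Reg1Δ/Δ, which did not overlap. In the first experiment the copy was at 0 in every control and under 0.001 TPM in the others. With the copy added, the log2 fold change was −0.0072 (SE 0.23, FDR = 0.981 by limma).

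**Figure D3:**
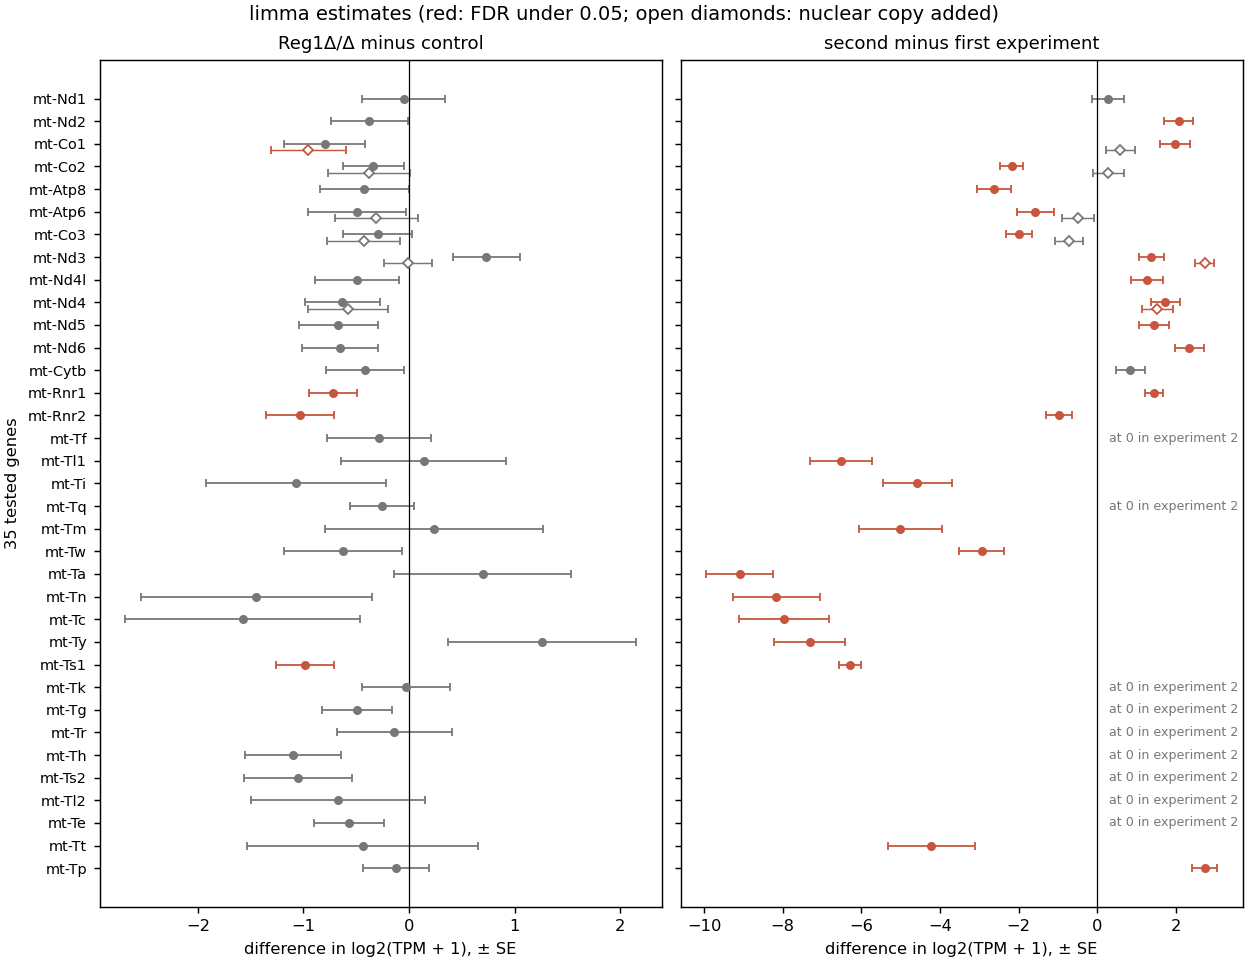
limma estimates in log2(TPM + 1) with SE (x axes) for the 35 tested genes (y axis), for libraries labelled Reg1Δ/Δ minus controls and for the second minus the first experiment. Red marks FDR under 0.05, and open diamonds give the estimate with the nuclear copy added. In the left panel only mt-Rnr1, mt-Rnr2 and mt-Ts1 are red as single genes, and in the right panel 9 tested tRNAs listed at 0 in every library of the second experiment carry no estimate.

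The effect of the genotype was compared between the experiments by the interaction in limma. Of the 35 genes 0 passed at FDR under 0.05, against 0.443% of all tested genes (0.225% higher, 0.217% lower), and 4 had an unadjusted p under 0.05. The lowest FDR was that of mt-Ty, a tyrosine tRNA (FDR = 0.173). It was listed at 0 in both controls of the second experiment and at 6.42 and 32.4 TPM in the libraries labelled Reg1Δ/Δ, while in the first it was at 652, 1208 and 569 TPM and at 513, 1311 and 211 TPM. With a pseudocount of 0.1 it passed (FDR = 0.0480). The count also depended on single libraries. Without replicate 1 of the controls in the second experiment 3 genes passed (mt-Tc, mt-Ti and mt-Tn), and 1 passed without replicate 1 of the controls (mt-Ts2) or without replicate 2 of the libraries labelled Reg1Δ/Δ (mt-Th) in the first. Each of these tRNAs was listed at 0 in at least 2 libraries of the second experiment.

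More of these genes were called between the experiments than between the genotypes. By the same fit, 9 of the 35 genes were higher and 24 lower in the second experiment, 33 in all, against 60.4% of all tested genes (27.0% higher, 33.4% lower). The 24 include 9 tRNAs listed at 0 in every library of the second experiment. These passed the filter through the first experiment alone, so their direction was fixed by it. The labels name one version of the cDNA kit for all libraries and the study's methods another, and neither says whether the experiments differed in it. Of the 20 tested tRNAs 19 were lower, the 9 listed at 0 included. Of the 22 tRNAs, 19 were above 0 in every library of the first experiment, 11 were listed at 0 in every library of the second and 3 were above 0 in all of the second. A fold change for tRNAs listed at 0 is not given.

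The tRNA set was led by different genes in the experiments. mt-Ts1 made up 81.6% to 88.6% of the tRNA TPM in the first experiment but 12.6% to 22.4% in the second. It was the highest of all 33393 genes in 5 of the 6 libraries of the first experiment and the next after mt-Atp8 in the other, replicate 3 of those labelled Reg1Δ/Δ. Its log2 difference, second minus first, was −6.29 (SE 0.28, FDR = 5.28e-08 by limma). Its ratio to mt-Co1, whose last 3 bases it shares on the other strand, was 35.03, 35.5 and 37.1 in the controls and 32.8, 32.9 and 32.3 in the libraries labelled Reg1Δ/Δ of the first experiment. In the second the ratio was 0.153 and 0.097 in the controls and 0.071 and 0.143 in the libraries labelled Reg1Δ/Δ. The ratio thus varied little within the first experiment, with the genotypes apart, while mt-Ts1 itself varied from 18601 to 67444 TPM.

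mt-Tp, the proline tRNA at the end of the gene order, was the only tRNA that was higher in the second experiment. It was at 300, 235 and 320 TPM in the controls and at 380, 311 and 364 TPM in the libraries labelled Reg1Δ/Δ of the first experiment. Second-experiment levels were 2174 and 3462 TPM and 2658 and 965 TPM, above every library of the first. The log2 difference was 2.73 (SE 0.32), and mt-Tp then made up 73.0% to 82.8% of the tRNA TPM. Other tRNAs were far lower: mt-Ta, an alanine tRNA, was at 423 to 2175 TPM in the first experiment, whereas 3 libraries of the second listed it at 0 and the fourth at 19.3 TPM. mt-Tq, a glutamine tRNA, was at 349 to 1297 TPM in the first and listed at 0 in all libraries of the second.

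Among the mRNAs, 7 were higher and 4 lower in the second experiment. Those that were lower lie in one stretch of the genome, from mt-Co2 to mt-Co3, and code for subunits of cytochrome c oxidase and ATP synthase. mt-Atp8 was at 18538 to 32310 TPM in the first experiment, against 1361 to 9863 TPM in the second (log2 difference −2.61, SE 0.43, FDR = 5.47e-04 by limma). It made up 58.2% to 66.4% of the mitochondrial mRNA TPM in the first and 17.7% to 25.1% in the second. mt-Co2 (−2.17), mt-Co3 (−1.99) and mt-Atp6 (−1.57) were lower as single genes. mt-Atp6 missed the threshold with no filter on low values (FDR = 0.0554), without replicate 1 of the controls (FDR = 0.0530) or replicate 2 of the libraries labelled Reg1Δ/Δ (FDR = 0.0516) of the second experiment.

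The mRNAs that were higher were mt-Nd6 (log2 difference 2.34), mt-Nd2 (2.07), mt-Co1 (1.98), mt-Nd4 (1.73), mt-Nd5 (1.44), mt-Nd3 (1.38) and mt-Nd4l (1.28), all but mt-Co1 subunits of complex I. mt-Nd6, the only mRNA on the minus strand, was at 67.5 to 135 TPM in the first experiment, against 174 to 1065 TPM in the second, without overlap. Its ratio to mt-Nd5, with which it shares 14 bases, was 0.594 to 0.690 in the first and 1.11 to 1.24 in the second. mt-Nd4l missed the threshold with no filter (FDR = 0.0688), after rescaling to nuclear protein-coding genes (0.96, FDR = 0.0602), without replicate 2 of the controls (FDR = 0.0608) or replicate 1 of the libraries labelled Reg1Δ/Δ (FDR = 0.0706) of the second experiment. mt-Nd1 (0.28, FDR = 0.574) and mt-Cytb, of complex III (0.84, FDR = 0.0765), were not called. Both were called without replicate 2 of the libraries labelled Reg1Δ/Δ in that experiment, at 0.78 (FDR = 0.0261) and 1.29 (FDR = 0.00273), and mt-Cytb also among genes with at least 1 TPM in every library (FDR = 0.0481).

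The rRNAs differed in opposite directions between the experiments. mt-Rnr1 was higher in the second (log2 difference 1.46, SE 0.23, FDR = 3.96e-04 by limma) and mt-Rnr2 was lower (−0.98, SE 0.33, FDR = 0.0254). The ratio of mt-Rnr2 to mt-Rnr1, which both code for RNA of the same ribosome, was 2.17 to 4.31 in the first experiment, against 0.443 to 0.711 in the second. The call of mt-Rnr2 was lost after quantile normalization (−0.61, FDR = 0.1301 by limma) and with no filter on low values (FDR = 0.0783). Among single libraries, it was lost without replicate 2 of the controls (FDR = 0.0502) or replicate 1 of the libraries labelled Reg1Δ/Δ (FDR = 0.0515) of the first experiment. It was also lost without replicate 1 of the controls (FDR = 0.0600) or replicate 2 of the libraries labelled Reg1Δ/Δ (FDR = 0.0823) of the second. Of the mRNAs that share bases, mt-Nd4l to mt-Nd4 had a ratio of 1.73 to 2.50 in the first and 1.47 to 1.84 in the second, and mt-Atp8 to mt-Atp6 one of 10.5 to 13.5 and 4.44 to 8.05.

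The division of TPM between the mitochondrial genes and their nuclear copies differed between the experiments as well. The copy took 44.5% to 68.6% of the sum for mt-Co2 in the first experiment, against 89.0% to 94.4% in the second. For mt-Co3 it took 21.0% to 32.4% and 63.8% to 77.5%, and for mt-Atp6 41.7% to 55.1% and 62.8% to 82.0%. The order was opposite for mt-Co1, with 68.7% to 75.2% in the first and 25.3% to 30.3% in the second. For mt-Nd4 it took 3.48% to 29.2% in the first and 0 in the second, and for mt-Nd4l next to 0 in both. TPM is per length, and the copy of mt-Co1 measures 492 bases against 1545 of the gene and that of mt-Nd4 876 against 1378. The percentages of these genes are thus not shares of reads. Since 5 of the 7 copies equal their gene over the whole alignment, reads within that stretch cannot be assigned to gene or copy by sequence.

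**Figure D4:**
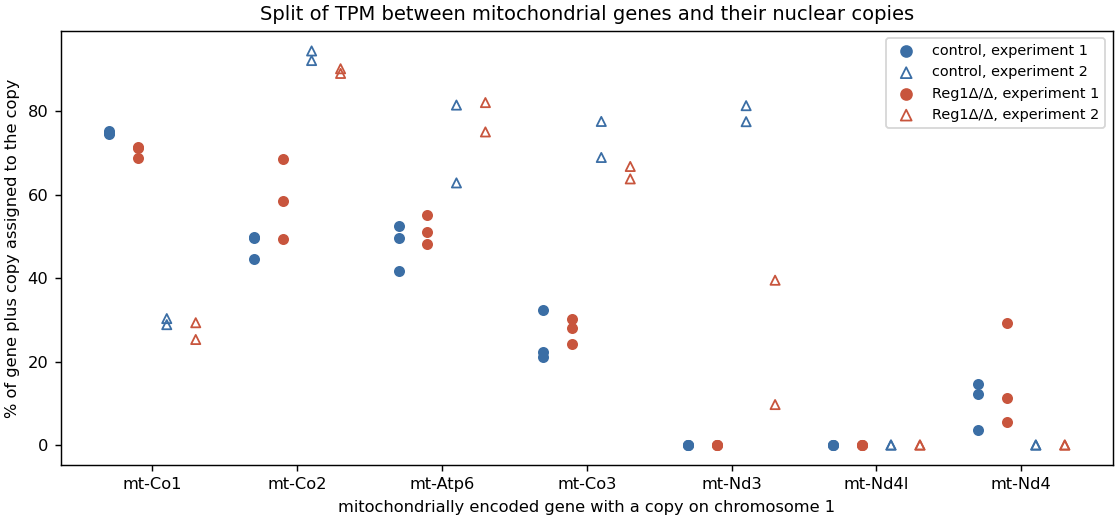
Percent of the summed TPM of gene and copy that was assigned to the nuclear copy (y axis) for 7 mitochondrial mRNA genes (x axis) in each library. TPM is per length and the copies of mt-Co1 and mt-Nd4 are much shorter than their genes, so their percent is not a share of reads. Filled circles are the first experiment and open triangles the second, blue controls and red libraries labelled Reg1Δ/Δ. The experiments do not overlap for 6 of the genes, mt-Nd4l being the exception, and for mt-Nd3 the genotypes do not overlap in the second experiment, with 77.5% and 81.3% in controls and 9.69% and 39.5% in the others.

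With the copies added to their genes, mt-Co2 (log2 difference 0.29, FDR = 0.560), mt-Co3 (−0.71, FDR = 0.107), mt-Atp6 (−0.49, FDR = 0.316) and mt-Co1 (0.58, FDR = 0.192) were no longer called between the experiments by limma. The copy of mt-Co1 measures 492 bases against 1545 of the gene, and that of mt-Nd4 876 against 1378. Their summed TPM is thus not on the scale of the gene, and a sum weighted by length was not tested. The log2 difference of mt-Nd3 was then 2.73 and that of mt-Nd4 1.53. In all, 8 genes were then higher and 21 lower in the second experiment, the tRNAs listed at 0 there among them. mt-Atp8, to which no annotated copy was matched, was then the only mRNA that was lower.

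The nuclear genes that serve these RNAs are described for comparison, in 11 lists with 264 genes, of which 257 were tested. Of the 257, 156 rose and 12 fell in the libraries labelled Reg1Δ/Δ, against 15.0% and 37.9% of all tested genes. Subunits of the respiratory chain and ATP synthase were taken by gene name with a few associated factors. Ndufa4, which was not called, is listed under complexes I and IV and counted in both. Of the 84 nuclear entries 62 were higher and 4 lower, with a median log2 fold change of 0.41. Of the 13 mitochondrial genes 0 were called, with a median of −0.42. In complex I the medians were 0.39 over 37 nuclear genes, 27 of them higher, and −0.49 over 7 mitochondrial genes. In complex IV, 11 of 15 nuclear genes were higher and 3 lower (median 0.44), and the 3 mitochondrial genes had a median of −0.34. The difference between the genomes was not tested. After median-of-ratios scaling 224 of the nuclear genes were higher and 8 lower, and after quantile normalization 166 and 8.

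**Figure D5:**
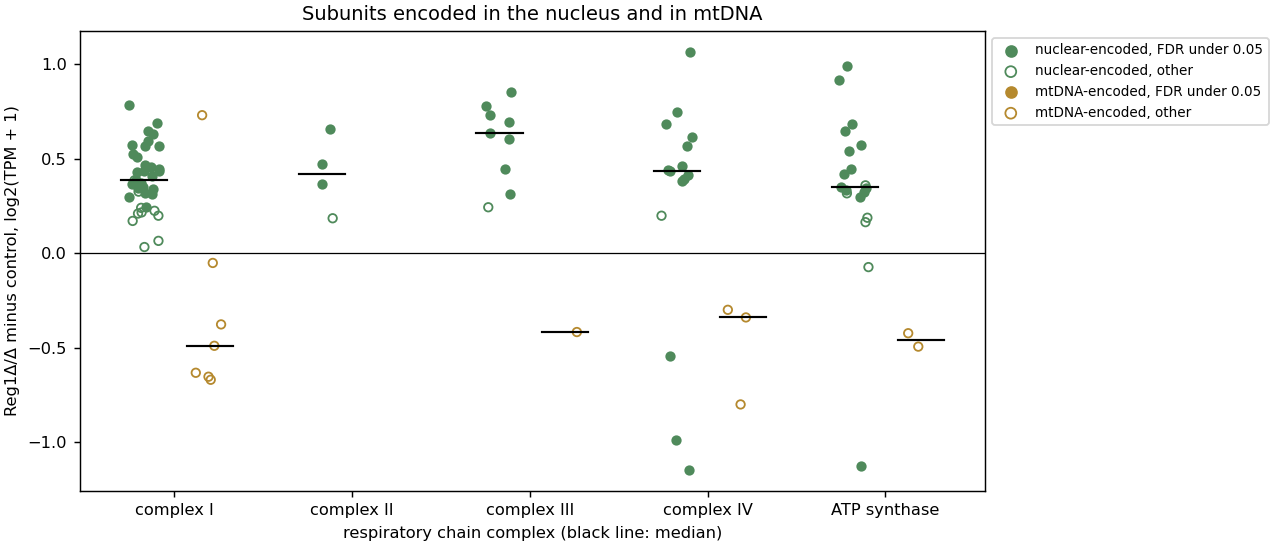
Difference in log2(TPM + 1) between libraries labelled Reg1Δ/Δ and controls (y axis) for subunits of the respiratory chain complexes and ATP synthase (x axis), encoded in the nucleus (green) or in mitochondrial DNA (brown). Filled points passed FDR under 0.05 by limma and black lines are medians. The medians are 0.39 and −0.49 in complex I and 0.44 and −0.34 in complex IV, and no mitochondrial point is filled.

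Of 17 genes for transcription and replication of mitochondrial DNA, 0 were higher and 1 was lower, with a median of 0.06. The gene that was lower was Mterf2, of the transcription termination factor family (−0.58, FDR = 0.00379 by limma), which was not called after median-of-ratios scaling (−0.20, FDR = 0.239) or quantile normalization (0.03, FDR = 0.881). Median-of-ratios scaling gave 11 of the 17 as higher and 0 as lower (median 0.45), and quantile normalization 8 and 0 (median 0.46). Of 31 genes for processing and decay of mitochondrial RNA, 13 were higher and 0 lower (median 0.29), 20 and 0 after quantile normalization (median 0.64) and 23 and 0 with median-of-ratios scaling (median 0.69). Rexo2, an exonuclease that degrades short RNA in mitochondria, had 180 ± 62.8 TPM in the controls and 463 ± 189 TPM in the libraries labelled Reg1Δ/Δ (SD, n = 5, log2 fold change 1.32, limma FDR = 1.23e-04). Mrm3, which methylates the 16S rRNA, was higher as well (0.82, FDR = 0.00429).

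Of 77 genes of mitochondrial ribosomal proteins, the partners of mt-Rnr1 and mt-Rnr2, 59 were higher and 0 lower, with a median of 0.48. After quantile normalization 61 were higher and 0 lower (median 0.56), and with median-of-ratios scaling 75 and 0 (median 0.89). The largest rises were those of Mrpl35 (1.12) and Mrpl52 (0.99). Of 22 mitochondrial aminoacyl-tRNA synthetases, which charge the tRNAs, 9 were higher and 1 lower (median 0.32), 16 and 0 after quantile normalization (median 0.59) and 19 and 0 with median-of-ratios scaling (median 0.70). Those that were higher included Yars2 (0.84) and Gars (0.75), and Wars2 fell by 0.49 (FDR = 0.0426). Wars2 was not called after either scaling. Of 18 tested genes of biogenesis and mass, 11 were higher, led by the chaperonin gene Hspe1 (1.02) and Phb (0.997), and 1 was lower, Gabpb1 (−0.95).

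Of 11 mitophagy genes 3 were higher and 5 lower, with a median of −0.02, against 15.0% and 37.9% of all tested genes. Median-of-ratios scaling gave 6 as higher and 4 as lower (median 0.39), and quantile normalization 4 and 5 (median −0.16). Pink1, the kinase that marks damaged mitochondria, had 71.6 ± 20.3 TPM in the controls and 24.3 ± 4.58 TPM in the libraries labelled Reg1Δ/Δ (SD, n = 5, log2 fold change −1.50, limma FDR = 2.76e-05). Ulk1, a kinase that starts autophagy, fell by 1.33 on the log2 scale, and the receptors Optn (1.17) and Bcl2l13 (1.09) were higher. In the lists of subunits, the largest rises were those of Cox6b2 (1.06) and Atp5g1 (0.99) and the largest falls those of Cox7a1 (−1.14) and Atp5sl (−1.13). Atp5sl is in the list by its name and is known as an assembly factor of complex I, and Cox7a1 was at a mean of 2.75 TPM in the controls and was not called after quantile normalization (−0.31, FDR = 0.412). Summed markers of granulocytes and B cells moved with the same contrast, and their part in these list counts was not tested.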

How the data were processed

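RNA-seq values of CD34- HSCs from 5 control samples and 5 samples labelled Reg1Δ/Δ were used, grouped by sample title and genotype. Per the study's methods and the labels, cDNA was made with a SMART-Seq or SMARTer kit, which the sources name differently, and libraries with Nextera XT, and the authors mapped paired reads to GRCm38 with STAR, estimated TPM per transcript with Salmon 0.9.1 and GENCODE M17, and deposited log2(TPM + 1). TPM was recovered from these deposited log2 values and summed per gene over 95912 transcripts. Whether samples came from separate animals is not stated per sample, so p-values measure the spread between these samples. The header of one second-experiment file labelled Reg1Δ/Δ carried the name of the other replicate, from which its values differed.

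The test was limma 3.58.1 (R 4.3.3) on log2(TPM + 1) of genes that reached 1 TPM in 5 or more samples, with the experiment as covariate and Benjamini-Hochberg adjustment (FDR under 0.05) over all 12874 genes. The experiment and interaction coefficients came from fits of the same kind. The fit was checked on simulated data. Class sums were not tested. Nuclear copies were pseudogenes with at least 99% identity over at least 90% of their length to a mitochondrial mRNA gene by BLAST 2.17.0. Sequences and coordinates are from GENCODE M21 transcripts on GRCm38. The members and lists were chosen with earlier results of these data known. Any mt- gene could be named, and from each nuclear list the 2 largest rises and falls among genes past the threshold.

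Alternatives were a pseudocount of 0.1, no filter, at least 1 TPM in every sample, quantile normalization, median-of-ratios scaling, rescaling to nuclear protein-coding genes or without transcripts under 200 bases, no covariate, a replicate block, eBayes with a trend, each experiment alone and each sample left out. Chosen after seeing the data were each alternative for the interaction and for single genes between the experiments, leaving out samples for tRNA and rRNA sums, and adding the copies, except for single genes by genotype.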

Additional observations from a re-analysis of the deposited data

How the results depend on the processing

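TPM keeps no depth, so no count test could be run. The number of members that were lower in the libraries labelled Reg1Δ/Δ, 3 by the reported fit, was 1 with no filter (mt-Ts1, with mt-Rnr1 and mt-Rnr2 lost), 0 after median-of-ratios scaling, 0 with no covariate and 0 in the second experiment alone, and 3 to 4 with 1 sample left out. The number that were higher, 0, was 1 with at least 1 TPM in every sample and 1 after median-of-ratios scaling (mt-Nd3), and 0 to 1 with 1 sample left out. The 24 members that were lower in the second experiment became 7 with at least 1 TPM in every sample and 5 without transcripts under 200 bases, settings that drop most tRNAs from the test, and 22 to 24 with 1 sample left out, where 8 to 11 were higher. For the interaction, 1 member passed with a pseudocount of 0.1, and with 1 sample left out 0 to 1 had a larger and 0 to 3 a smaller effect in the second experiment. Of the nuclear genes, 49 were higher and 7 lower with no covariate and 24 and 2 in the second experiment alone. The log2 ratio of summed mRNA in the first experiment was 0.51 after median-of-ratios scaling. With 1 sample left out it ranged from −0.14 to 0.24, and that of the second experiment from −1.75 to −0.13.

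The replicate numbers were entered as a replicate block of 5 pairs. Deviations of same-numbered samples correlated by 0.033 to 0.18 (first experiment) and −0.054 (second), so the samples share only a number. With the block 0 members were higher and 2 lower, and mt-Rnr1 had FDR = 0.0691.

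No estimate listed here was past the threshold after it changed sign, and mt-Co2 between the experiments had been past it before. By genotype, 9 of the 35 members changed sign after median-of-ratios scaling, 8 in the first experiment alone and 3 after quantile normalization. After median-of-ratios scaling these included mt-Tp (0.29), mt-Co2 (0.079), mt-Co3 (0.12), mt-Nd1 (0.37), mt-Nd2 (0.041) and mt-Cytb (0.0022). In the first experiment alone they included mt-Tp (0.31), mt-Atp6 (0.041), mt-Atp8 (0.15) and mt-Nd1 (0.49). In the second alone mt-Tt was 0.048. mt-Nd1 was 0.033 after quantile normalization and mt-Nd3 was −0.0072 with its copy added. Between the experiments, mt-Co2 was 0.29 with its copy added, and mt-Nd1 was −0.16 after quantile normalization and −0.035 after rescaling to nuclear protein-coding genes. With 1 sample left out, mt-Tt ranged from −1.33 to 0.30, mt-Tp from −0.26 to 0.20 and mt-Nd1 from −0.24 to 0.35 by genotype, and mt-Nd1 from −0.059 to 0.78 between the experiments, the last value past the threshold. The cause was not tested.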
